A study of Rattus norvegicus with 6 samples.

Results

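The transcripts described here are those of fibronectin and of the cell-surface receptors through which fibroblasts hold on to fibronectin, collagen and hyaluronan. The 10 genes were taken by symbol, as a set named with earlier results of these data known. The deposited table of 17143 genes had a row for 9 of them, namely Fn1, Itgb1, Itga5, Itgb3, Itgb5, Itga1, Itga11, Cd44 and Sdc4. Itgav, the integrin αv subunit gene, is not analysed here. Of the 9 genes, 7 were high enough to test, and Itgb3 and Itga1 were not. The cells were Rat-1, an established rat fibroblast line, seeded at 25000 per well and lysed 4 h later on the extracellular matrix (ECM) to which they had adhered. The matrix had been remodelled by the collagenase MMP13 (2 libraries), remodelled by the collagenase MMP1 (2 libraries) or left native (2 libraries). All 3 groups share the cell line and the 4 h of contact, the cells had been grown in medium with serum, and the labels name no genotype or drug that differs between them. The labels do not say whether the duplicates came from separate days or cultures. Every limma p-value is set against the scatter of these libraries over genes of like level, and that scatter may be technical.

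Fibronectin is a secreted glycoprotein that cells assemble into fibrils, mainly through the integrin α5β1, which recognises an Arg-Gly-Asp sequence in it. Integrins are pairs of an α and a β subunit. The β1 subunit also pairs with α1 and α11 to make collagen receptors, and αv pairs with β3 or β5 to make receptors for vitronectin and other ligands with the same tripeptide. CD44 is the main hyaluronan receptor, and syndecan-4 is a heparan sulfate proteoglycan that binds the heparin-binding region of fibronectin and acts with α5β1 in focal adhesions. Fibrillar collagen cut by a collagenase unfolds at body temperature, which is known to expose integrin-binding sequences hidden in the triple helix.

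Messenger RNA was counted by 3′ end sequencing, in which a transcript is read near its end whatever its length, so values are not divided by gene length. Each value is a read number that the authors scaled by a size factor for its library, called units here. Libraries held 362122 and 161817 reads on MMP13-remodelled matrix, 184061 and 225105 on MMP1-remodelled matrix, and 219775 and 347618 on native matrix. A gene at 0 could still have up to 3 reads, or 2.21 units in MMP13 replicate 1, which had the most reads, and 5.04 units in MMP13 replicate 2, which had the fewest. Of 14 fibroblast markers, 13 had reads (not Lum), and they summed to between 7946 and 8504 units on MMP13-remodelled, 8206 and 8289 on MMP1-remodelled and 7410 and 8114 on native matrix. Leukocyte markers, which include the integrin genes Itgam and Itgb2, summed to between 16.8 and 22.8 units on MMP13-remodelled, 26.4 and 27.7 on MMP1-remodelled and 13.4 and 17.4 on native matrix, with Tyrobp at 0. Platelet, endothelial, epithelial and muscle markers summed to at most 10.6, 8.51, 6.62 and 25.5 units in any library, with Gp9, Tie1 and Epcam at 0. Tenocyte markers summed to between 31.9 and 58.1 units on MMP13-remodelled, 49.2 and 55.5 on MMP1-remodelled and 62.0 and 70.9 on native matrix. Reads of Rn45s, the ribosomal RNA precursor, were 0.692% and 0.968% of the total on MMP13-remodelled matrix, 0.661% and 0.936% on MMP1-remodelled matrix, and 0.347% and 0.293% on native matrix. The part of these markers and of Rn45s in the values below was not tested. In RNA from whole wells, fewer cells of a kind and less RNA per cell cannot be told apart.

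Promoter sequences are shown for 3 of the genes. Itgb1 and Cd44 had lower values on both remodelled matrices in every library, and Itga5, the partner of Itgb1 in the fibronectin receptor, did not. The sequences are from RefSeq on the build GRCr8, whereas the reads were placed on rn5, and 8 of the 10 names matched, all but Fn1 and Itgb3. Each window runs from 250 bases before the gene's start to 50 after it, 5′ to 3′ on the gene's strand. Capitals mark matches, on either strand, to the GC box GGGCGG, the TEAD motif GGAATG, the AP-1 motif TGANTCA, the antioxidant response element TGACNNNGC or the TATA box TATAAA.
Itgb1 promoter, chr19:73602027-73602326, + strand: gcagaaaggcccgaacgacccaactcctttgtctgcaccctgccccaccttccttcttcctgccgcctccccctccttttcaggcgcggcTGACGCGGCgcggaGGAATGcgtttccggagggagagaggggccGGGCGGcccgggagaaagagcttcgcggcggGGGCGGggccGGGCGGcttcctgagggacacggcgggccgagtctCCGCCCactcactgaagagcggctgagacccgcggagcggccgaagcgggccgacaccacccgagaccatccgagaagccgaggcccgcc
Itga5 promoter, chr7:136381256-136381555, - strand: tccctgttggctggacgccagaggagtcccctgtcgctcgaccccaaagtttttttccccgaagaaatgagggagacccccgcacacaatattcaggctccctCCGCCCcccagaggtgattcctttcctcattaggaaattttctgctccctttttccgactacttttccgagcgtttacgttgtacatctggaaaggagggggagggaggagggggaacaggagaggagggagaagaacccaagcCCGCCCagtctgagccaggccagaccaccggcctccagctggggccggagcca
Cd44 promoter, chr3:109699375-109699674, - strand: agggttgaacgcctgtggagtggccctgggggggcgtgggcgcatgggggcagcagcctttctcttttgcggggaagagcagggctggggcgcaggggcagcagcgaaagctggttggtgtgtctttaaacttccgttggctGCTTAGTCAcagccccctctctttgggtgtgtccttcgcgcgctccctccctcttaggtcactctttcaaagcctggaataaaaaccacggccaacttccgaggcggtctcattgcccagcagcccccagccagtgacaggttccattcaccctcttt
The Itgb1 window held 4 GC boxes, 1 TEAD motif and 1 antioxidant response element, and the Itga5 window held 2 GC boxes. The Cd44 window held 1 antioxidant response element. AP-1 and antioxidant letters can share bases, but in these windows no marked motifs overlapped. Among 33469 rat promoter windows of the same length, 33.1% held a GC box, 14.2% a TEAD motif, 12.1% an antioxidant response element, 7.33% an AP-1 motif and 14.2% a TATA box. A match is a string of letters and not a measured site.

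Taking the genes together, Fn1, Itgb1 and Cd44 lay lower in all 4 libraries on remodelled matrix than in both libraries on native matrix. For Itga5 and Sdc4 the libraries on each remodelled matrix overlapped with the native ones. Itgb5 overlapped with native on MMP13-remodelled matrix and lay above it on MMP1-remodelled matrix. Itga11 lay above native on MMP13-remodelled and below it on MMP1-remodelled matrix. The test was limma on log2(value + 1) over all 7284 tested genes, with a call at an adjusted p under 0.05. On MMP13-remodelled against native matrix, 0 of the 7 tested genes were called, where 0.412% of all tested genes were (0.275% higher, 0.137% lower). An unadjusted limma p under 0.05 was found for 3 of the 7 and for 586 of all 7284 genes. By edgeR 0 of the 7 were called and by DESeq2 1, Itgb1. DESeq2's own filter left Itgb5, Itga11 and Cd44 without an adjusted p in this comparison, so it could not call them. On MMP1-remodelled against native matrix, 0 of 7 were called by limma, edgeR and DESeq2, against 0.151% of all genes by limma (0.137% higher, 0.0137% lower). Unadjusted, 4 of the 7 and 600 of all 7284 genes had a limma p under 0.05. Between the remodelled matrices, MMP13 over MMP1, 0 of 7 were called by limma, edgeR and DESeq2, against 0.0412% of all genes by limma (all of them higher). Here 1 of the 7 and 380 of all 7284 genes had an unadjusted limma p under 0.05. With the 4 remodelled libraries set against the 2 native ones, 1 of 7 was called by limma, Fn1, and it was lower, where 0.645% of all genes were called (0.522% higher, 0.124% lower). The directions over all genes depended on MMP13 replicate 1: without it, 5 genes were called higher and 24 lower on MMP13-remodelled against native matrix (20 and 10 with it), and 4 higher and 23 lower for MMP13 over MMP1 (3 and 0 with it). The pooled comparison uses the same native libraries as those of each matrix and is no independent support for them.

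**Figure D1:**
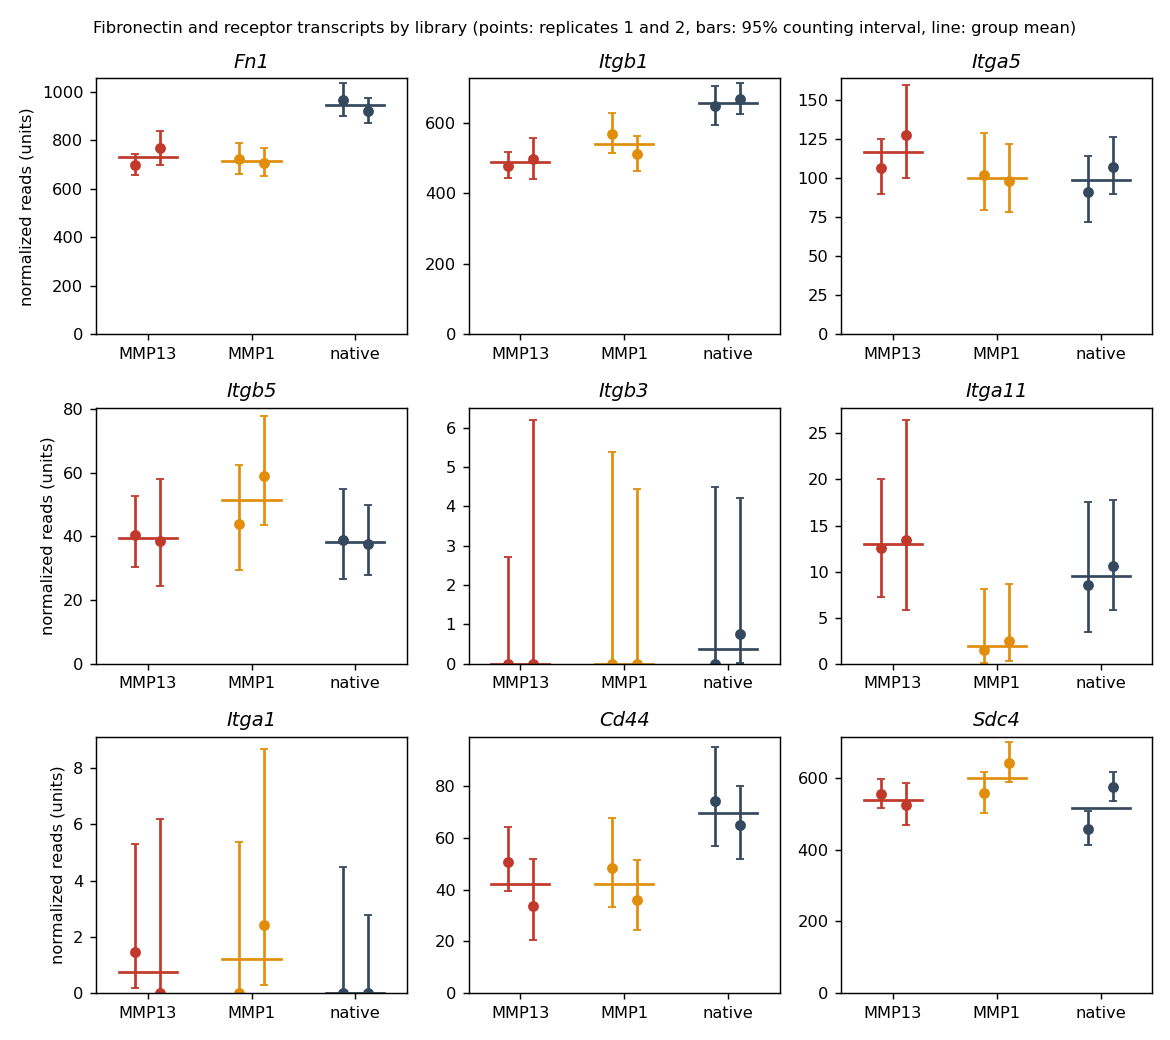
Normalized reads (units, linear axes from 0) of fibronectin and its receptors in each library, by matrix, with points for replicates 1 and 2, exact Poisson 95% intervals as bars and group means as lines. Fn1, Itgb1 and Cd44 lie lower in the 4 remodelled libraries than in the 2 native ones, and Itga11 is at 1.46 and 2.40 units on MMP1-remodelled matrix.

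Separation of the 2 libraries of one group from those of another was common among all genes and is read against that. On MMP13-remodelled against native matrix, 4 of the 7 genes did not overlap (3 lower, 1 higher), against 37.5% of all tested genes (18.6% lower, 18.9% higher). On MMP1-remodelled against native matrix 5 of 7 did not overlap (4 lower, 1 higher), against 38.4% (18.8% lower, 19.6% higher), and for MMP13 over MMP1 it was 5 of 7 (2 higher, 3 lower), against 31.4% (15.9% higher, 15.4% lower). For both remodelled matrices against native, 3 of 7 did not overlap, all lower, against 17.6% of all genes (8.7% lower, 8.91% higher). The median log2 fold of the 7 genes was 0.04 on MMP13-remodelled and -0.29 on MMP1-remodelled matrix relative to native, and that of all tested genes was 0.0088 and 0.016.

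Fn1, the ligand, was the gene with the most reads of the set, and ranked 17th by mean level in the table. It had 699 and 766 units on MMP13-remodelled matrix, 723 and 707 units on MMP1-remodelled matrix, and 965 and 921 units on native matrix. All 4 remodelled libraries lay below both native ones, and the remodelled matrices overlapped with each other. Fn1 fell on remodelled matrix, at a log2 fold of -0.38 relative to native (SE 0.099, 95% interval -0.58 to -0.19, adjusted p = 0.0326), or 0.767-fold. On each matrix alone it did not pass. It averaged 732 ± 47.4 units on MMP13-remodelled and 943 ± 31.5 units on native matrix (SD, n = 2 each), and its log2 fold was -0.37 (SE 0.11, limma adjusted p = 0.162). On MMP1-remodelled matrix it averaged 715 ± 11.2 units (SD, n = 2), and its log2 fold was -0.40 (SE 0.11, limma adjusted p = 0.131). Between MMP13- and MMP1-remodelled matrix the log2 fold was 0.03, with a 95% interval of -0.19 to 0.26. The pooled call also held by edgeR (adjusted p = 0.0296) and DESeq2 (0.0142). It did not hold with any 1 library left out: the adjusted p was 0.143 and 0.0588 without MMP13 replicates 1 and 2, 0.144 and 0.167 without MMP1 replicates 1 and 2, and 0.785 and 0.0789 without native replicates 1 and 2. The fold itself moved little in these fits, from -0.42 to -0.35.

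Itgb1, the β1 subunit shared by the fibronectin and collagen receptors, had 479 and 497 units on MMP13-remodelled matrix, 570 and 511 units on MMP1-remodelled matrix, and 649 and 668 units on native matrix. The 3 groups did not overlap, with MMP13 lowest and native highest. On MMP13-remodelled against native matrix the log2 fold was -0.43 (SE 0.13, 95% interval -0.69 to -0.18, adjusted p = 0.122). That difference passed by DESeq2 (adjusted p = 0.0440, over the 737 genes its own filter left) and with quantile scaling (0.0447) and in none of the other alternatives, over a range of 0.0440 to 0.858. On MMP1-remodelled against native matrix the log2 fold was -0.29 (SE 0.13, adjusted p = 0.50). MMP13- over MMP1-remodelled matrix gave -0.14 (95% interval -0.40 to 0.11), so the step between the remodelled matrices was within its error.

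Itga5, the α subunit that makes Itgb1 a fibronectin receptor, had 107 and 128 units on MMP13-remodelled matrix, 102 and 98.4 units on MMP1-remodelled matrix, and 91.2 and 107 units on native matrix. MMP13 replicate 1 was level with native replicate 2, so remodelled and native libraries overlapped. The log2 fold was 0.24 (95% interval -0.24 to 0.71) on MMP13-remodelled and 0.02 (-0.45 to 0.50) on MMP1-remodelled matrix relative to native. Both intervals hold no change. Within a library the reads of a pair of genes can be compared without any scaling. Itga5 made up 18.2% and 20.4% of the reads of Itga5 and Itgb1 together on MMP13-remodelled matrix, 15.2% and 16.1% on MMP1-remodelled matrix, and 12.3% and 13.8% on native matrix. The 3 groups were in order without overlap, although the exact 95% binomial intervals of single libraries overlapped, at 15.6% to 21.1% in MMP13 replicate 1 and 11.8% to 16.1% in native replicate 2. These shares include the lower Itgb1 values on remodelled matrix given above. They were looked at after the values were known and were not tested, since 4 libraries against 2 cannot give a two-sided exact permutation p under 0.133.

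**Figure D2:**
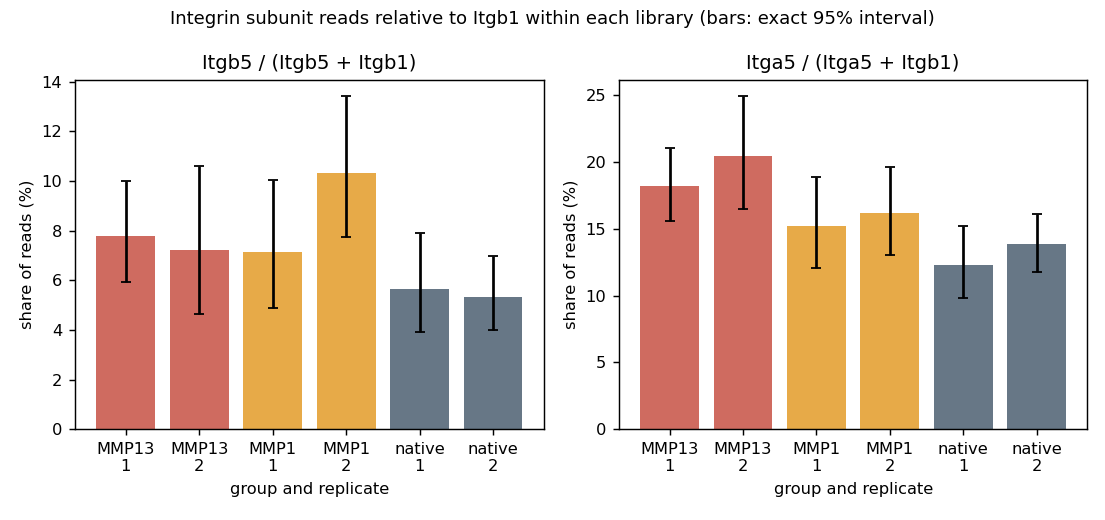
Share (%) of Itgb5 among Itgb5 and Itgb1 reads (left) and of Itga5 among Itga5 and Itgb1 reads (right) in each library, with exact 95% binomial intervals as error bars, which cover counting error only. Itga5 is at 18.2% and 20.4% on MMP13-remodelled matrix and at 12.3% and 13.8% on native matrix. Both shares also move with Itgb1, which is lower on remodelled matrix.

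Of the β subunits that pair with αv, Itgb5 was detected in every library and Itgb3 in 1 of 6. Itgb5 had 40.4 and 38.6 units on MMP13-remodelled matrix, 43.8 and 58.8 units on MMP1-remodelled matrix, and 38.9 and 37.7 units on native matrix. MMP1 replicate 2 was the highest library, and the MMP13 and native libraries overlapped. The log2 fold was 0.04 (95% interval -0.64 to 0.73) on MMP13-remodelled and 0.40 (-0.29 to 1.08) on MMP1-remodelled matrix relative to native, which allows a change in either direction, and the value on MMP1-remodelled matrix was 0.19 without MMP1 replicate 2. Relative to Itgb1 within the same library, Itgb5 made up 7.78% and 7.21% of the reads of both on MMP13-remodelled, 7.14% and 10.3% on MMP1-remodelled, and 5.65% and 5.35% on native matrix. This share includes the lower Itgb1 values on remodelled matrix and was not tested. Itgb3, known from platelets, osteoclasts and endothelium, had 1 read over all 6 libraries, in native replicate 2. It was at 0 in the other libraries, where up to 5.04 units would not have been detected on MMP13-remodelled matrix, up to 4.38 on MMP1-remodelled and up to 3.65 on native matrix.

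Itga11 and Itga1, the α subunits of collagen receptors in this set, were low. Itga11, whose product binds fibrillar collagen on fibroblasts, had 12.5 and 13.4 units on MMP13-remodelled matrix, 1.46 and 2.40 units on MMP1-remodelled matrix, and 8.51 and 10.6 units on native matrix. In reads these were 17 and 8, then 1 and 2, then 7 and 14. The 3 groups did not overlap, with MMP1 lowest and MMP13 highest. MMP13- over MMP1-remodelled matrix gave a log2 fold of 2.27 (SE 0.81, 95% interval 0.69 to 3.86), which did not pass over all genes (adjusted p = 0.80). As a ratio of scaled reads, 25 against 3, it was 6.47, with an exact 95% counting interval of 1.97 to 33.5. Such counting intervals pool the reads of both libraries of a group. They leave out scatter between libraries, which was larger than sampling noise over all genes, and so are too narrow. MMP1-remodelled over native matrix gave a log2 fold of -1.86 (SE 0.81, adjusted p = 0.47), and a ratio of 0.202 (counting interval 0.0386 to 0.677), from 3 against 21 reads. MMP13-remodelled over native matrix gave a log2 fold of 0.41 (SE 0.81, adjusted p = 0.93). Both libraries on MMP1-remodelled matrix lay under the 3 reads that a value of 0 allows, so their level is known only as low. Itga1, the α subunit of another collagen receptor, had 2 and 0 reads on MMP13-remodelled, 0 and 2 on MMP1-remodelled and 0 and 0 on native matrix, and no fold can be given.

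Cd44, the hyaluronan receptor, had 50.7 and 33.6 units on MMP13-remodelled matrix, 48.2 and 36.0 units on MMP1-remodelled matrix, and 74.1 and 64.9 units on native matrix. The remodelled libraries all lay below the native ones and overlapped with each other. The log2 fold was -0.73 (SE 0.33, 95% interval -1.38 to -0.09, adjusted p = 0.51) on MMP13-remodelled and -0.72 (SE 0.33, -1.37 to -0.08, adjusted p = 0.51) on MMP1-remodelled matrix relative to native. With both remodelled matrices set against native it was -0.73 (SE 0.28, adjusted p = 0.35). The estimate rests on between 20 and 86 reads a library, and its SE was larger than that of Fn1. With 1 library left out the pooled fold ran from -0.87 to -0.58. On MMP13-remodelled matrix alone it was -0.44 without MMP13 replicate 2 and -1.02 without MMP13 replicate 1, and on MMP1-remodelled matrix alone it ran from -0.93 to -0.52.

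Sdc4, the syndecan that binds fibronectin beside α5β1, had 557 and 526 units on MMP13-remodelled matrix, 559 and 645 units on MMP1-remodelled matrix, and 459 and 577 units on native matrix. Remodelled and native libraries overlapped, and the native libraries were the farthest apart. The log2 fold was 0.07 (95% interval -0.18 to 0.33) on MMP13-remodelled and 0.22 (-0.03 to 0.48) on MMP1-remodelled matrix relative to native. Without native replicate 1, the lower of the native libraries, these were -0.092 and 0.059. The difference between Sdc4 and Itgb1 in their folds was not tested.

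**Figure D3:**
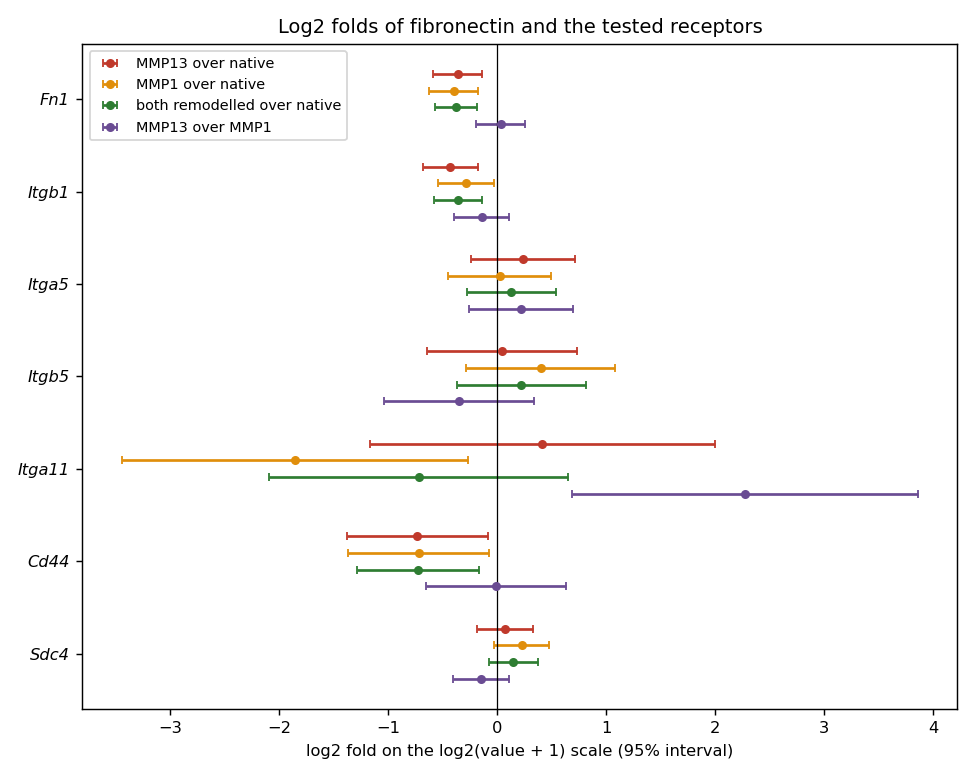
Log2 folds, on the log2(value + 1) scale, with limma 95% intervals, for Fn1 and the 6 tested receptors in 4 comparisons. Fn1, Itgb1 and Cd44 lie left of 0 against native matrix on both remodelled matrices, and the Itga11 intervals are the widest, at 0.69 to 3.86 for MMP13 over MMP1.

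**Figure D4:**
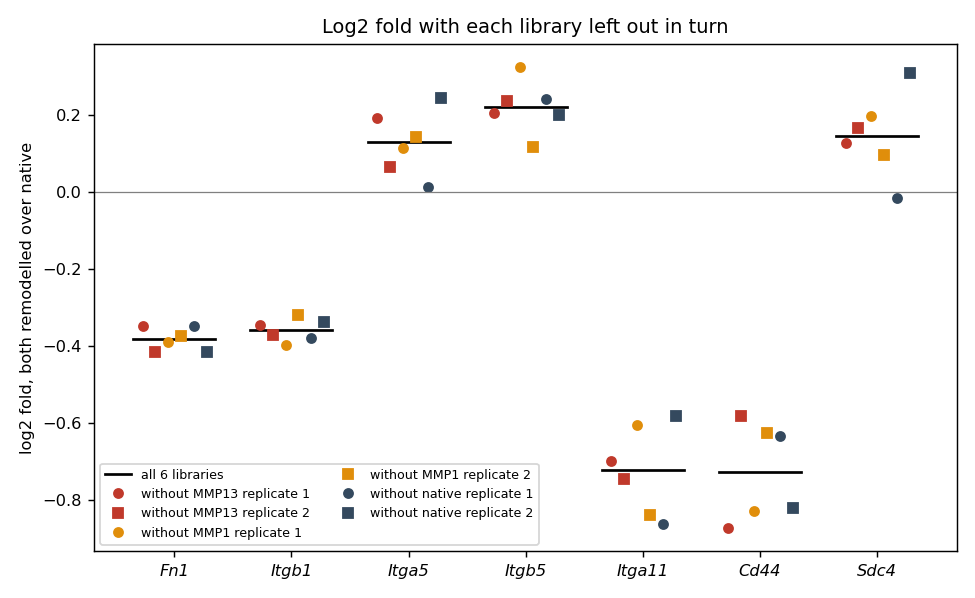
Log2 fold of both remodelled matrices over native, with all 6 libraries (line) and with each library left out in turn (points). Fn1 stays between -0.42 and -0.35 and Itgb1 between -0.40 and -0.32, while Sdc4 crosses 0 without native replicate 1.

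The other genes of the adhesion pathway were taken from 5 lists, and of their 70 tested genes 1 was called, in the pooled comparison, where 0.645% of all tested genes were (0.522% higher). It was higher on remodelled matrix and was 1 of 17 tested genes among other matrix receptors and co-receptors. This was Rpsa, which encodes a protein of the small ribosomal subunit that also serves as a laminin receptor. Rpsa had 299 and 270 units on MMP13-remodelled, 309.6 and 251 units on MMP1-remodelled, and 202 and 178 units on native matrix. All remodelled libraries lay above both native ones, at a log2 fold of 0.57 (SE 0.15, adjusted p = 0.0380). Rpsa lost its call with any library left out: the adjusted p was 0.175 and 0.0829 without MMP13 replicates 1 and 2, 0.260 and 0.0590 without MMP1 replicates 1 and 2, and 0.295 and 0.325 without native replicates 1 and 2. The median log2 fold of the 17 genes was 0.25 on MMP13-remodelled and -0.0048 on MMP1-remodelled matrix relative to native.

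In the remaining 4 lists no gene was called by limma in any of the 4 comparisons, where at most 0.645% of all tested genes were, and the genes named are those with the smallest p. Of 6 other integrin subunits tested, 5 had a negative log2 fold on each remodelled matrix, with medians of -0.40 on MMP13-remodelled and -0.55 on MMP1-remodelled matrix. Over all tested genes, 49.5% and 48.9% had a negative log2 fold. The medians fall on low genes, Itga7, Itgb6 and Itgb8, with 26, 18 and 16 reads over all libraries. Each of these had a read in 5 libraries, and their SEs were 1.13, 1.24 and 1.30. Itga6, a laminin receptor subunit, had 13.97 and 6.72 units on MMP13-remodelled, 11.7 and 6.002 on MMP1-remodelled, and 24.3 and 17.4 units on native matrix. Its pooled log2 fold was -1.10 (SE 0.53, adjusted p = 0.50). Itgb7, best known from lymphocytes, had 20.6 and 58.8 units on MMP13-remodelled, 23.4 and 30.0 on MMP1-remodelled, and 23.1 and 20.4 units on native matrix. The highest value was that of MMP13 replicate 2 alone, and both MMP1 libraries lay above the native ones. Of 16 tested ligands, the median log2 fold was 0.16 on MMP13-remodelled and 0.0071 on MMP1-remodelled matrix. Tgfbi, an integrin-binding matrix protein, had 55.9 and 65.5 units on MMP13-remodelled, 68.6 and 61.2 on MMP1-remodelled, and 38.9 and 40.0 units on native matrix (pooled log2 fold 0.65, SE 0.27, adjusted p = 0.39). Emilin1, an elastic-fibre glycoprotein, had 38.2 and 38.6 units on MMP13-remodelled, 29.2 and 61.2 units on MMP1-remodelled, and 30.4 and 14.3 units on native matrix, and the MMP1 and native libraries overlapped. Its pooled log2 fold was 0.91 (SE 0.34, adjusted p = 0.28), and leaving out native replicate 2 gave 0.40 while leaving out native replicate 1 gave 1.43.

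Of 18 tested adaptors and adhesion kinases, 12 had a positive log2 fold on MMP13-remodelled and 13 on MMP1-remodelled matrix, with medians of 0.28 and 0.19. Over all tested genes, 49.5% and 48.9% had a negative log2 fold in these comparisons. Unadjusted, 1 and 2 of the 18 had a limma p under 0.05, against 586 and 600 of all 7284 genes. Vasp, an actin regulator of focal adhesions, had 92.7 and 84.0 units on MMP13-remodelled, 96.4 and 90.0 units on MMP1-remodelled, and 66.9 and 53.6 units on native matrix (pooled log2 fold 0.59, SE 0.23, adjusted p = 0.37). The Src-family kinase gene Fyn had 10.2 and 6.002 units on MMP1-remodelled and 15.8 and 27.9 units on native matrix, at a log2 fold of -1.31 (SE 0.57, adjusted p = 0.46). On MMP13-remodelled matrix Fyn had 13.2 and 20.2 units, which overlapped with native. Of 13 tested genes of integrin traffic, 10 had a negative log2 fold on each matrix, with medians of -0.28 on MMP13-remodelled and -0.35 on MMP1-remodelled matrix. Those medians are the folds of Myo10 (SE 0.52) and of Numb (SE 0.96), which are within their error. Unadjusted, 2 of the 13 on MMP13-remodelled and 4 on MMP1-remodelled matrix had a limma p under 0.05. Cav1, the caveolar coat gene, had 55.9 and 68.8 units on MMP13-remodelled, 83.2 and 61.2 units on MMP1-remodelled, and 113 and 102 units on native matrix (pooled log2 fold -0.68, SE 0.24, adjusted p = 0.21). Dab2, an endocytic adaptor for β1 integrins, had a pooled log2 fold of -0.82 (SE 0.34, adjusted p = 0.38). All tested genes had a median log2 fold near 0 in these comparisons, and genes of a list are not independent of each other.

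**Figure D5:**
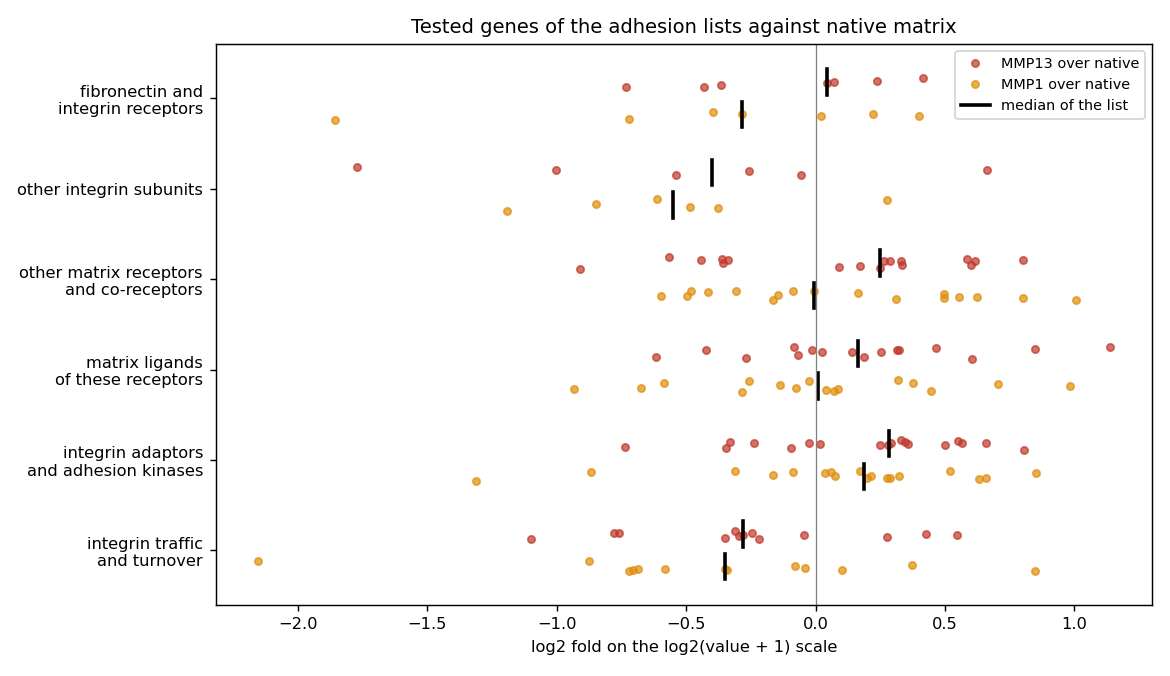
Log2 folds against native matrix of the tested genes of each adhesion list, MMP13-remodelled above and MMP1-remodelled below in each row, with the median of each list as a vertical line. The traffic list has medians of -0.28 and -0.35 and the adaptor list 0.28 and 0.19, which were not tested. Over all tested genes the medians were 0.0088 and 0.016.

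Over the 6 libraries, the genes whose log2 values ran most closely with Fn1, among 1066 others with a mean of at least 50 units, were Frmd8 (Pearson r = 0.996), Nme2 (0.992) and Wnk1 (0.978). Frmd8 had 46.3 and 58.8 units on MMP13-remodelled, 51.1 and 51.6 units on MMP1-remodelled, and 94.8 and 87.5 units on native matrix. For Itgb1 they were Mmp13 (r = 0.979), Eif5 (0.965) and Cav1 (0.962). The cells' own Mmp13 transcript had 61.0 and 65.5 units on MMP13-remodelled, 77.4 and 63.6 units on MMP1-remodelled, and 103 and 95.8 units on native matrix. With 6 points that share depth and scaling, 31 genes reached r above 0.9 with Fn1 and 18 with Itgb1, and these values are a description only.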

How the data were processed

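Messenger RNA of Rat-1 fibroblasts was measured in 6 libraries, 2 per matrix, grouped by their titles. The submitters' processing notes name bcl2fastq, TopHat, DESeq and the build rn5. The gene counter, annotation, strand use and any collapsing of molecular identifiers were not given in the sources used here. As deposited, each value is a normalized signal, a read count scaled by a factor for its library: 100% of values came out as whole reads (tolerance 0.01). Reads may not be independent molecules, so intervals and floors cover counting error only. Replicates differed by more than sampling noise (chi-square per degree of freedom 2.10 to 2.54).

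Genes with at least 5 units in at least 2 libraries were tested on log2(value + 1), a scale that understates folds of low genes, with limma 3.58.1 (R 4.3.3, eBayes with trend, all libraries), adjusted by Benjamini-Hochberg over 7284 genes. The prior degrees of freedom were infinite, so errors come from the trend over genes of like level and are too small for a gene that scatters more. Recovered reads were tested with edgeR 4.0.16 and DESeq2 1.42.0 as alternatives, beside other pseudocounts, filters, scalings, a replicate block and each library left out. The fits were also run on simulated reads with the same dispersion for every gene, which cannot give the error rate in these libraries.

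The genes and lists were chosen with earlier results of these data known. From each list, called genes are named, otherwise those with the smallest p (at most 2). Likeness names the 3 highest correlations, predicted genes with LOC or RGD symbols left out.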

Additional observations from a re-analysis of the deposited data

Results flagged for a closer look

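Itga11 lay on opposite sides of its native values on the remodelled matrices: both MMP13 libraries (12.5 and 13.4 units) lay above both native libraries (8.51 and 10.6 units), and both MMP1 libraries (1.46 and 2.40 units) lay below them. Neither difference from native passed (limma, adjusted p = 0.93 on MMP13-remodelled and 0.47 on MMP1-remodelled matrix), and the MMP13 over native ratio of 1.31, from 25 against 21 reads, had a counting interval of 0.703 to 2.46, which holds no change. The direct comparison, MMP13 over MMP1, gave a log2 fold of 2.27 (SE 0.81), higher in 2 of 2 libraries, and did not pass over all tested genes (limma, adjusted p = 0.80). It kept its sign in all 17 alternatives run, with an adjusted p of 0.56 to 1. The values rest on between 1 and 17 reads a library.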

How the results depend on the processing

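Of the 7 tested genes, quantile scaling called 2 on MMP13-remodelled against native matrix, Fn1 (adjusted p = 0.0154) and Itgb1, and DESeq2 called 1, Itgb1, where limma called 0. Against native with both remodelled matrices pooled, the count of 1 became 2 with quantile scaling and by DESeq2 (Fn1 and Itgb1), and 0 with no filter, with TMM scaling, without the trend, and with each library left out (0 to 0). Fn1 then had adjusted p of 0.157, 0.131 and 0.787 in the first 3 of these, over a range of 0.0058 to 0.787, and Rpsa lost its call in the same settings, over a range of 0.0178 to 0.741. The cause was not tested. Fn1, Itgb1 and Cd44 kept a negative fold against native in every alternative run. Signs turned for these. Itga5 on MMP1-remodelled matrix was at -0.038 with TMM scaling and -0.0051 by DESeq2, and from -0.094 to 0.14 with a library left out. For MMP13 over MMP1, Fn1 was at -0.067 with quantile scaling and from -0.033 to 0.099 with a library left out. Cd44 was at 0.018 with TMM scaling, 0.078 by edgeR, 0.062 by DESeq2 and from -0.30 to 0.28 with a library left out. Sdc4 ran from -0.092 to 0.23 on MMP13-remodelled matrix and from -0.017 to 0.31 pooled, and Itgb7, at 0.66 with all libraries, from -0.072 without MMP13 replicate 2 to 1.40 without MMP13 replicate 1. With a replicate block the counts of called genes of the set were unchanged, and the pooled log2 fold of Fn1 was -0.38 (adjusted p = 0.0234). Deviations of libraries with the same number correlated at -0.07, -0.04 and 0.0059, so no pairing by number was seen. With 2 libraries per group, these values cannot tell whether libraries of the same number shared a day or culture.

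Over all genes, the 30 calls for MMP13 against native became 18 with a pseudocount of 0.5 and with only the groups compared, 13 with no filter, 8 with TMM scaling (7 higher and 1 lower, against 20 and 10) and 0 without the trend. The 11 for MMP1 against native became 3 with TMM scaling, 1 by DESeq2 and 0 without the trend, and 14 with quantile scaling (11 higher and 3 lower, against 10 and 1). The 3 for MMP13 over MMP1 became 1 with only the groups compared and by DESeq2 and 0 without the trend. The 47 pooled calls became 25 with no filter, 17 with TMM scaling (12 higher and 5 lower, against 38 and 9), 42 with quantile scaling (28 and 14) and 0 without the trend. With a library left out the 4 counts ran from 6 to 35, 3 to 17, 1 to 27 and 5 to 33. Their balance turned without MMP13 replicate 1, with 5 higher and 24 lower for MMP13 against native and 4 higher and 23 lower for MMP13 over MMP1, and without MMP1 replicate 2, with 3 higher and 4 lower for MMP1 against native. DESeq2 adjusted over 737 genes for MMP13 against native and for the pooled comparison and over 14735 for the others. Depth limits Itga11, Itga1 and Itgb3 most, with at most 17 reads a library.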

Other observations

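Integrin reads lay mostly in 1 gene among the subunits analysed, which do not include Itgav, Itga2, Itga2b, Itga3, Itga9 or Itgax. Of 20 integrin subunit rows in the table, 7 had a read in all 6 libraries and 7 had fewer than 5 reads over all of them. Itgb1 took 67.8% and 64.3% of the reads of these 20 rows on MMP13-remodelled matrix, 72.2% and 70.6% on MMP1-remodelled matrix, and 74.9% and 74.4% on native matrix. The 3 groups did not overlap in this share, which includes the lower Itgb1 values given above and was not tested. The next rows by reads were Itga5 (590 reads in all), Itgb5 (239) and Itgb7 (150). The ratio of Fn1 to Itgb1 units overlapped between groups, at 1.46 and 1.54 on MMP13-remodelled, 1.27 and 1.38 on MMP1-remodelled, and 1.49 and 1.38 on native matrix.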
